A study of Homo sapiens with 6 samples.

Results

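The HOX genes are the homeobox transcription factors named HOXA, HOXB, HOXC or HOXD with a number, and they were taken by that name pattern from a table of polyadenylated RNA read counts. Of the 20169 genes in the table, 39 matched: 11 in the HOXA cluster on chromosome 7, 10 in HOXB on chromosome 17, 9 in HOXC on chromosome 12 and 9 in HOXD on chromosome 2. The cells were HEK293T, a human line grown from embryonic kidney and carrying a viral large T antigen. Their genomes held a landing pad, which is an engineered entry point for inserting reporter genes, with either the CAG promoter, a strong composite promoter, or the PGK promoter of a glycolytic gene. The CAG line and the PGK line gave 3 libraries each, with 22450538 to 23442542 counts per library in CAG and 21896246 to 22889708 in PGK.

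The lines were monoclonal, and since each promoter is known here from a single labelled line, an effect of the promoter and a difference between clones cannot be told apart in any value given. Separate cultures are not recorded for the libraries, and the p-values therefore reflect spread among libraries that may be technical. In bulk RNA a lower level can come from fewer cells of a kind or from less RNA per cell, and these cannot be told apart either.

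HOX proteins set the identity of body segments along the head to tail axis. The genes sit in clusters that arose by duplication of an ancestral cluster, and genes at matching places in different clusters, called paralogs, share a number. Genes with low numbers lie at the 3' end of a cluster and act early and towards the head, and genes with high numbers act late and towards the tail. HOX proteins bind DNA through the homeodomain, often together with PBX, MEIS and PKNOX partners, while Polycomb proteins keep the clusters silent and Trithorax proteins such as KMT2A and KMT2B keep them active. In the mouse, the paralogs numbered 11 are needed for the kidney to form.

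The members are related in sequence, so the separation of their reads was examined first. The 30 bases that code for part of the third helix of the homeodomain, the helix that contacts DNA, are shown for 4 members, HOXB6 with the largest change and members at different places in the clusters, because they are among the best conserved of the family. Capitals mark bases that differ from the most common base of the 39 members at that position. All stretches are coding exon sequence of GENCODE 29 on GRCh38, read in the gene's direction.
HOXB6 (chr17:48596485-48596514, minus strand): atAtggttccagaaccgACgCatgaagtGg
HOXA5 (chr7:27141898-27141927, minus strand): atctggttccaAaaccggagAatgaagtGg
HOXB13 (chr17:48726832-48726861, minus strand): atctggttTcagaaccgCCggGtCaaAGag
HOXD13 (chr2:176094662-176094691, plus strand): atTtggttTcagaaccgAagAGtgaagGaC

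Over these 30 bases the 39 members had 35 distinct sequences, and 4 pairs were identical. The median pair differed at 6 bases. Over whole transcripts the members were easier to part: of 741 pairs, 8 shared any run of 50 bases, and 1 of these, HOXB3 with HOXD3 (13 shared runs), joined different clusters. The larger overlaps were between members of the same cluster that share exon bases in the annotation. Examples were HOXB3 with HOXB6, HOXC4 with HOXC6 and HOXD10 with HOXD11. In all, 12 members shared exon bases with another gene of the table, and 19 lay in part under an antisense transcript that is not in the table. For 11 members an annotated gene on the same strand that is not in the table also overlapped the exons. The library kit keeps the strand, but the sources used here do not say whether the counting did, so reads of such members and of their antisense partners cannot be told apart.

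All clusters were expressed in both lines, and their genes were on the whole modestly higher in the CAG line. Of the 36 members with enough counts to be tested, 21 were higher in CAG, 3 were lower and 12 did not pass, by edgeR's quasi-likelihood test at an adjusted p under 0.05. Over all 13103 genes tested 62.0% were called, 31.6% as higher and 30.4% as lower, against 58.3% and 8.33% of the tested HOX genes. The median log2 fold change, CAG over PGK, was 0.32 for HOX genes and -0.00 for all genes tested. The changes were small in size: HOX genes ran from -0.48 to 0.88 on the log2 scale and no member reached 2-fold, which 8.62% of all tested genes did while being called. All 3 CAG libraries lay above all 3 PGK libraries for 22 of the 36 tested members, against 33.5% of all tested genes. They lay below for 3 members, against 32.0% of all tested genes. Full separation in either direction was thus common over all tested genes too. Among the 24 tested members that share no exon bases with another gene of the table, 12 were higher and 3 lower, with a median of 0.19, and among the 12 that also have no antisense annotation 7 were higher and 1 lower, with a median of 0.22. These subsets were drawn after the values were seen. They can still hold members under same-strand annotation that is not in the table, HOXD4 among them.

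**Figure D1:**
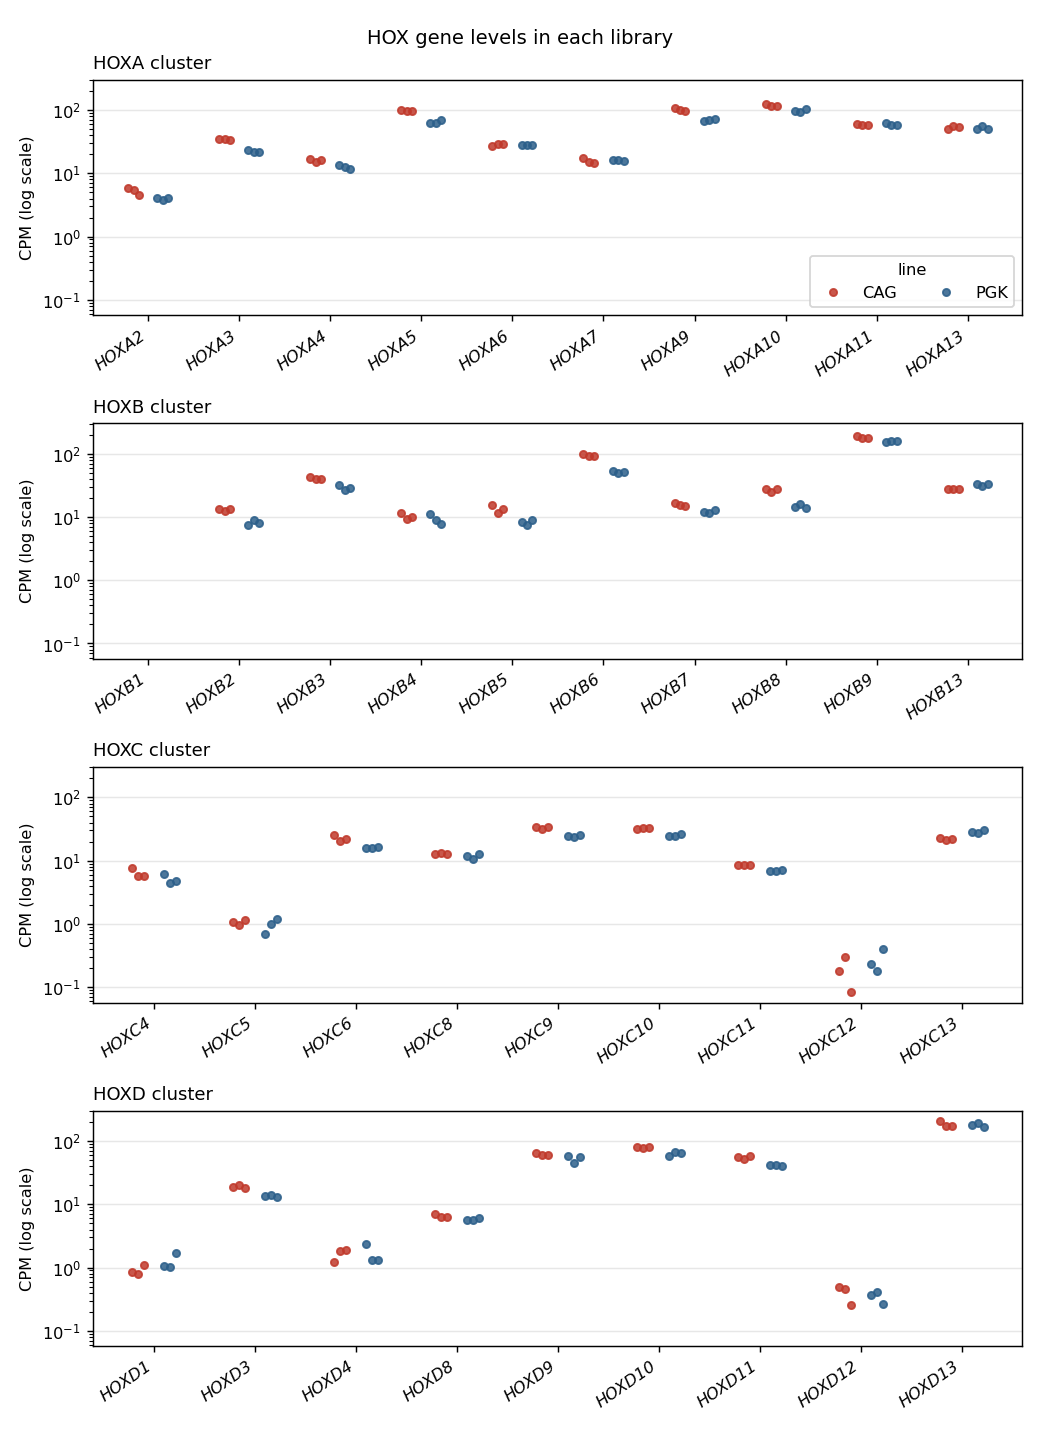
CPM (read counts scaled to a common library size, log scale) of each HOX gene in the 3 CAG and the 3 PGK libraries, 1 point per library, by cluster and in the order of paralog numbers. CAG points lie above PGK points for 22 of the 36 tested members and below them for 3, HOXB13 and HOXC13 among them; HOXB1 had 0 counts and has no points, and 1 member is not shown.

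HOXB held the genes with the largest changes. HOXB6, a trunk gene, had 98.9, 93.3 and 93.7 CPM (read counts scaled to a common library size) in the CAG libraries and 53.8, 50.4 and 50.8 CPM in the PGK libraries. Every CAG library was far above every PGK library. The log2 fold change was 0.88 (SE 0.05), with an adjusted p of 9.56e-11 in edgeR's quasi-likelihood test. Of the exon bases of HOXB6, 16.6% are shared with HOXB3 and 16.3% lie under the antisense transcript HOXB-AS3, so its level is uncertain. HOXB8, known from mouse studies for a role in myeloid cells and grooming, had 27.3, 25.1 and 28.0 CPM in CAG and 14.3, 16.0 and 13.7 CPM in PGK. These groups did not overlap either, and HOXB8 shares no exon bases with another annotated gene of the table and lies under no antisense one. Its log2 fold change was 0.87 (SE 0.08), with an edgeR quasi-likelihood adjusted p of 1.58e-08. HOXB5, which acts in gut innervation, had 15.3, 11.7 and 13.3 CPM in CAG and 8.24, 7.51 and 8.81 CPM in PGK. The groups were apart, with the CAG libraries spread more widely, at a log2 fold change of 0.71 (SE 0.10) and an adjusted p of 8.28e-06 in edgeR's quasi-likelihood test.

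Of the other HOXB genes, 4 were higher by less and 1 was lower. HOXB2, a hindbrain gene, and HOXB3 rose by 0.68 (SE 0.09) and 0.51 (SE 0.07) on the log2 scale, and HOXB7 rose by 0.35 (SE 0.08). HOXB9, which patterns the thoracic skeleton and the mammary gland in the mouse, was the cluster's most abundant member per length, with 190.3, 181 and 181 CPM in CAG and 153, 158 and 156 CPM in PGK. Its libraries were cleanly apart, yet the log2 fold change was 0.24 (SE 0.05), with an adjusted p of 1.70e-04 in edgeR's quasi-likelihood test. HOXB4, studied for expanding blood stem cells, averaged 10.3 ± 1.14 CPM in CAG and 9.35 ± 1.80 CPM in PGK (SD, n = 3 each), and its groups overlapped. It did not pass at 0.14 (SE 0.12), but without PGK replicate 1 it did, with an edgeR adjusted p of 0.0297. HOXB13, a prostate gene that lies apart from the rest of the cluster, went the other way, with 27.9, 27.9 and 28.1 CPM in CAG and 33.5, 31.1 and 33.1 CPM in PGK. All CAG libraries lay below all PGK libraries, with a log2 fold change of -0.22 (SE 0.06) and an edgeR quasi-likelihood adjusted p of 0.00463. HOXB1, a gene of the early hindbrain, had 0 counts in all 6 libraries, where 3 counts would be 0.126 to 0.140 CPM. Counted together, 7 of 9 tested HOXB genes were higher and 1 lower, with a median of 0.51. The shares were 77.8% and 11.1%, against 31.6% and 30.4% of all tested genes.

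HOXB8 carries a well known site for a microRNA that the HOX clusters themselves encode. miR-196 is transcribed from the HOXA, HOXB and HOXC clusters and miR-10 from HOXB and HOXD, and miR-196 is known to direct cleavage of the HOXB8 message. The mature sequences from RefSeq (GRCh38.p14) are shown with the seed, bases 2 to 8, in capitals, and the 22-base site in the HOXB8 3'UTR (GRCh38) with the bases that face the seed in capitals.
miR-196a-5p (MIR196A1, chr17:48632532-48632553, minus strand, and MIR196A2, chr12:53991762-53991783, plus strand): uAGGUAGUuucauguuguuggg
miR-196b-5p (MIR196B, chr7:27169528-27169549, minus strand): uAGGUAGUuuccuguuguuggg
miR-10a-5p (MIR10A, chr17:48579904-48579926, minus strand): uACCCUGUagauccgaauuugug
HOXB8 site (chr17:48612770-48612791, minus strand): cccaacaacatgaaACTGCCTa

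The HOXB8 site was complementary to miR-196a-5p at 21 of 22 bases and departed from the perfect complement as A18G, counted from the 5' end of the site. Both forms of miR-196 share a seed, and its match, ACTACCT on the sense strand, was found in the 3'UTR of 9 of the 39 HOX genes, against 9.31% of 12783 tested genes with a 3'UTR. HOX 3'UTRs were the shorter ones, with a median of 866 bases against 1608 bases, taking the longest per gene. HOXB8 itself was not among these 9, as its A18G departure lies within the bases that face the seed. HOXA7 held 4 matches, HOXA9 and HOXC8 held 2 each, and HOXA5, HOXB1, HOXB6, HOXB7 and HOXB13 were among those with 1. Of the 8 tested genes among them 4 were higher in CAG, 2 were lower and 2 did not pass, with a median of 0.25 on the log2 scale. That is 50% higher and 25% lower, against 31.6% and 30.4% of all tested genes. The miR-10 seed match, ACAGGGT, was found in 3 HOX genes and in 15.5% of the tested genes. Of these 3, 2 were higher in CAG (HOXA3 and HOXB3) and 1 was lower, against 31.6% and 30.4% of all tested genes. A match is a run of letters and not a tested site, and the mature microRNAs were not analysed here.

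In HOXA, 6 of 11 genes were higher in CAG (54.5%, against 31.6% of all tested genes), with a median of 0.28. HOXA3, which is needed for the thymus and parathyroid in the mouse, had 34.7, 34.7 and 33.9 CPM in CAG and 23.2, 21.6 and 21.7 CPM in PGK. All CAG libraries lay above all PGK libraries, with a log2 fold change of 0.64 (SE 0.06) and an edgeR quasi-likelihood adjusted p of 7.82e-08. Of the exon bases of HOXA3, 15.4% lie under antisense transcripts, so its level is uncertain. HOXA5, a gene of the lung and the breast, was the most abundant HOXA member per length. It had 101, 95.7 and 97.5 CPM in CAG and 62.5, 63.1 and 70.7 CPM in PGK. All CAG libraries were higher, at a log2 fold change of 0.58 (SE 0.06) and an adjusted p of 4.81e-08 in edgeR's quasi-likelihood test. HOXA9, known for its part in myeloid leukaemia, had 107, 99.2 and 95.7 CPM in CAG and 66.7, 68.7 and 71.8 CPM in PGK. The groups did not overlap, with a log2 fold change of 0.54 (SE 0.06) and an adjusted p of 9.63e-08 in the same edgeR test. HOXA2, HOXA4 and HOXA10 rose by 0.41 (SE 0.13), 0.34 (SE 0.08) and 0.28 (SE 0.05). The call of HOXA2, which had under 6 CPM in every library, was lost without CAG replicate 1, with an adjusted p of 0.0607 in edgeR's quasi-likelihood test.

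HOXA6, HOXA7, HOXA11 and HOXA13 did not pass, with log2 fold changes of 0.01, -0.04, -0.04 and 0.04 and overlapping libraries. HOXA11, of the kidney paralog group, averaged 58.5 ± 1.37 CPM in CAG and 60.1 ± 1.60 CPM in PGK (SD, n = 3 each). HOXA6, HOXA7 and HOXA11 have 39.3%, 62.5% and 31.1% of their exon bases under the antisense transcripts HOXA-AS3 and HOXA11-AS. With HOXD1 (58.1%) these are the 4 members with over 30% under antisense annotation, and all 4 missed the threshold, as did 8 of the other 32 tested members. This grouping was made after the values were seen, and the part of antisense reads in it was not tested. HOXA9 and HOXA10 share 13.1% and 9.93% of their exon bases with a readthrough transcript, so their values are uncertain.

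In HOXC, 4 of 8 tested genes were higher and HOXC13 was lower, with a median of 0.32. The share called was 62.5%, near the 62.0% of all tested genes. HOXC6, a trunk gene, had 25.2, 20.6 and 21.7 CPM in CAG and 15.9, 16.0 and 16.6 CPM in PGK. CAG replicate 1 was the highest, and the groups did not overlap, with a log2 fold change of 0.47 (SE 0.08) and an edgeR quasi-likelihood adjusted p of 4.81e-05. HOXC9, which acts in spinal motor neurons and had the highest level per length of HOXC, had 34.7, 32.2 and 33.6 CPM in CAG and 24.6, 23.7 and 25.2 CPM in PGK. Its libraries were clearly apart, with a log2 fold change of 0.45 (SE 0.06) and an adjusted p of 7.14e-06 in edgeR's quasi-likelihood test. HOXC10 and HOXC11 rose by 0.38 (SE 0.06) and 0.33 (SE 0.09). HOXC13, which acts in hair and nail, had 22.4, 21.1 and 22.2 CPM in CAG and 28.2, 27.8 and 30.7 CPM in PGK. All CAG libraries were below all PGK libraries, at a log2 fold change of -0.40 (SE 0.07) and an edgeR quasi-likelihood adjusted p of 4.87e-05. HOXC4, HOXC5 and HOXC8 did not pass, at 0.32 (SE 0.14), 0.14 (SE 0.25) and 0.14 (SE 0.09), and HOXC5 was near 1 CPM in both lines. HOXC4 passed when CAG replicate 2, CAG replicate 3 or PGK replicate 1 was left out, with edgeR adjusted p of 0.0435, 0.0457 and 0.00698. HOXC12 was too low to be tested, with 13 counts over the CAG libraries and 18 over the PGK libraries. HOXC4 and HOXC6 share 17.8% and 15.7% of their exon bases with other HOXC genes, so how their reads divide is uncertain. The same holds for HOXC5 and HOXC10, which share 33.9% and 7.12% with another gene of the table, AC012531.2.

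HOXD held the HOX gene with the highest level per length, which did not pass. HOXD13, a gene of digits and genital development, had 205, 171 and 172 CPM in CAG and 179, 194 and 166 CPM in PGK. The groups overlapped, with a log2 fold change of 0.02 (SE 0.07) and an adjusted p of 0.811 in edgeR's quasi-likelihood test. Its neighbours HOXD11, HOXD10 and HOXD9 were higher in CAG. HOXD11, a kidney and forearm gene in the mouse, had 56.4, 52.5 and 57.8 CPM in CAG and 41.1, 42.1 and 41.0 CPM in PGK. All CAG libraries were above all PGK libraries, at a log2 fold change of 0.42 (SE 0.06) and an edgeR quasi-likelihood adjusted p of 2.68e-06. HOXD10, which acts in limb and lumbar motor neurons, had 81.9, 77.8 and 80.3 CPM in CAG and 57.1, 66.6 and 64.1 CPM in PGK. The groups did not overlap, with PGK replicate 1 the lowest, and the log2 fold change was 0.35 (SE 0.06) with an adjusted p of 3.76e-05 in edgeR's quasi-likelihood test. HOXD10 and HOXD11 share 16.8% and 21.4% of their exon bases with each other, so their values are uncertain.

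Of the remaining HOXD genes, all but HOXD9 had lower levels than those above. HOXD3 had 18.7, 20.4 and 18.0 CPM in CAG and 13.5, 14.2 and 13.1 CPM in PGK, with no overlap. It rose by 0.49 (SE 0.08) on the log2 scale, with an edgeR quasi-likelihood adjusted p of 2.16e-05. Its level is uncertain, since 14.6% of its exon bases lie under antisense transcripts. HOXD9 averaged 61.6 ± 2.56 CPM in CAG and 53.4 ± 6.74 CPM in PGK (SD, n = 3 each). It rose by 0.20 (SE 0.07), the smallest called change of the family, with an adjusted p of 0.0261 in edgeR's quasi-likelihood test. That call was lost without CAG replicate 1, CAG replicate 3 or PGK replicate 2, with adjusted p of 0.133, 0.0557 and 0.128 in the same test. HOXD1, HOXD4 and HOXD8 did not pass, at -0.48 (SE 0.26), 0.01 (SE 0.25) and 0.17 (SE 0.11), although the HOXD8 libraries did not overlap. HOXD12, which lies between HOXD13 and HOXD11, was too low to be tested, with 28 counts over the CAG libraries and 23 over the PGK libraries. In all, 4 of 8 tested HOXD genes were higher and 0 lower, with a median of 0.19. The share called was 50%, below the 62.0% of all tested genes.

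**Figure D2:**
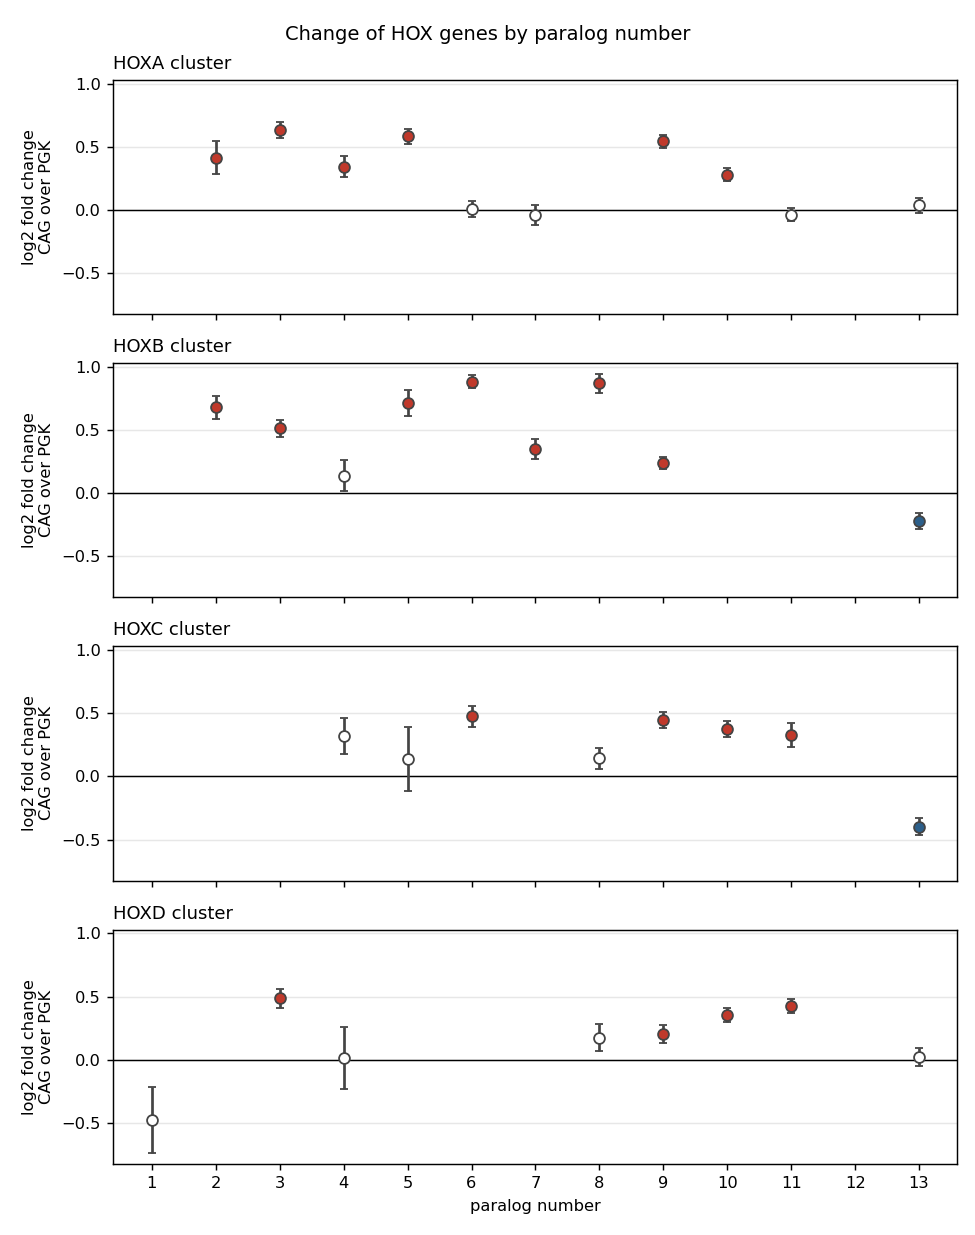
Log2 fold change, CAG over PGK, of 35 of the 36 tested HOX genes against paralog number, with 1 panel per cluster. Bars are standard errors, filled points passed edgeR's test (red higher in CAG, blue lower) and open points did not; both blue points, HOXB13 and HOXC13, stand at paralog number 13.

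Sorted by paralog number, all tested genes numbered 2, 3, 9 and 10 were higher in CAG and no gene numbered 13 was. All 3 tested genes numbered 3 were higher in CAG, at 0.49 to 0.64 on the log2 scale, as were both genes numbered 2, all 4 numbered 9 (0.20 to 0.54) and all 3 numbered 10 (0.28 to 0.38). Of genes numbered 5, 6 and 11, 2 of 3 in each were higher. Numbers 4 and 8 were more mixed, with 1 of 4 and 1 of 3 higher and none lower, and of the 2 genes numbered 7 HOXB7 was higher and HOXA7 did not pass. No gene numbered 12 was tested. Of the 4 tested genes numbered 13, 0 were higher, HOXB13 and HOXC13 were lower and HOXA13 and HOXD13 did not pass, with a median of -0.10. The 30 tested members numbered 2 to 12 had 21 higher (70%) and 0 lower, with a median of 0.35. Over all tested genes 31.6% were higher and 30.4% lower. The split was made after the values were seen, and the difference between its sides was not tested.

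The clusters differed in how much of the HOX RNA they held. Summed over its genes, HOXA had 571, 546 and 542 CPM in CAG and 453, 456 and 466 CPM in PGK. HOXB had 443, 416 and 423 CPM in CAG and 325, 319 and 319.8 CPM in PGK. In both clusters all CAG sums lay above all PGK sums. HOXC sums were the lowest, with 145, 135 and 139 CPM in CAG and 119, 115 and 125 CPM in PGK. HOXD had 435, 390.4 and 399 CPM in CAG and 358, 371 and 350.3 CPM in PGK. These groups did not overlap either, though the nearest HOXD sums were 390.4 CPM in CAG and 371 CPM in PGK. The ratios of the means were 1.33 for HOXB, 1.21 for HOXA, 1.17 for HOXC and 1.13 for HOXD. HOXB accordingly took 28.0% ± 0.159 of the counts of the family in CAG and 25.5% ± 0.349 in PGK, and HOXD took 26.7% ± 0.548 in CAG and 28.6% ± 0.821 in PGK (SD, n = 3 each). A few genes set these sums: HOXD13 held 44.7% of HOXD counts in CAG and 49.97% in PGK, and HOXB9 held 43.0% of HOXB counts in CAG and 48.5% in PGK. HOXC13 fell to 15.7% of HOXC counts in CAG, against 24.2% in PGK.

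**Figure D3:**
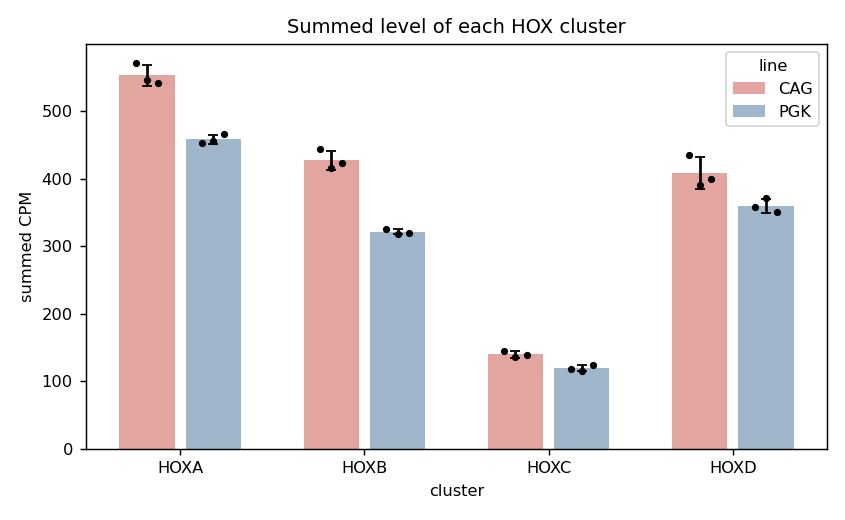
Summed CPM of each HOX cluster in the CAG and PGK lines; bars are means, error bars the SD over 3 libraries and points the libraries. The CAG bar is the taller one in all 4 clusters, with ratios of the means from 1.13 for HOXD to 1.33 for HOXB.

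Levels of different genes were compared per kilobase of annotated exon (CPM per kb), and the order was much the same in both lines. HOXD13 was first in both, at 81.5 ± 8.48 in CAG and 80.3 ± 6.38 in PGK, followed by HOXB9 at 71.3 ± 2.16 in CAG and 60.4 ± 0.851 in PGK and HOXA5 at 57.4 ± 1.52 in CAG and 38.3 ± 2.68 in PGK (CPM per kb, SD, n = 3 each). The libraries of these 3 genes did not overlap within a line. HOXB6 took rank 4 in CAG with 36.6 ± 1.20 CPM per kb and rank 10 in PGK with 19.8 ± 0.726, and HOXB8 took rank 14 in CAG and rank 20 in PGK, the largest moves. Behind HOXB6 in CAG, HOXA9, HOXD9 and HOXA10 lay at 33.2, 32.9 and 32.2 CPM per kb with overlapping libraries, so their order is not resolved. In PGK, HOXD9, HOXA10 and HOXA11 likewise overlapped, at 28.6, 26.5 and 26.1 CPM per kb. Of the 11 genes with the highest levels in either line, HOXA5, HOXB6 and HOXA6 had a number below 9. At the low end HOXD1, HOXD12, HOXC12 and HOXB1 lay under 1 CPM per kb in both lines, as did HOXC5.

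The genes beside the clusters were centred near 0. The 10 nearest tested genes on each side of each cluster had median log2 fold changes of -0.01 for HOXB, -0.02 for HOXA, -0.04 for HOXC and -0.08 for HOXD. Of these 80 genes 16 were higher and 23 lower in CAG, or 20.0% and 28.8%, against 31.6% and 30.4% of all tested genes. Next to HOXA, the adaptor gene SKAP2 fell by 0.18 (SE 0.06) and HIBADH, an enzyme of valine breakdown, rose by 0.33 (SE 0.06). Next to HOXB, SNX11 at 0.03 (SE 0.06) and CALCOCO2 at -0.00 (SE 0.05) did not pass. Next to HOXC, CALCOCO1 fell by 0.37 (SE 0.07), while SMUG1, a DNA repair glycosylase, was at 0.02 (SE 0.07). Next to HOXD, LNPK at -0.08 (SE 0.05) and MTX2 at -0.09 (SE 0.05) did not pass. A large change nearby was that of GTSF1, the seventh tested gene beyond the HOXC4 end of HOXC, which had 44.6 ± 2.29 CPM in CAG (SD, n = 3) and 0 counts in all PGK libraries. The difference between HOX genes and their neighbours was not tested.

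**Figure D4:**
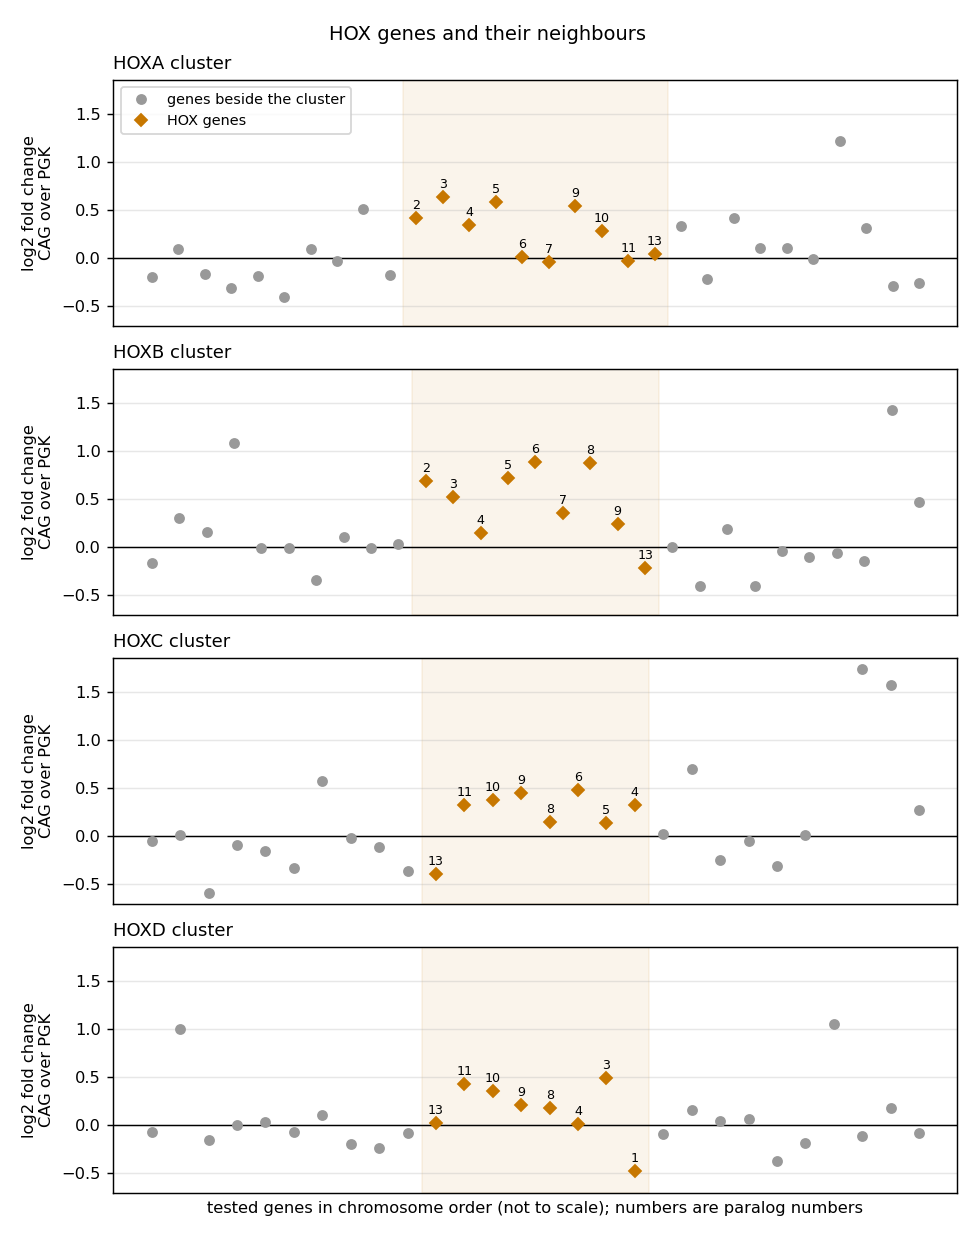
Log2 fold change, CAG over PGK, of HOX genes (diamonds, labelled by paralog number) and of the 10 nearest tested genes on each side (grey), in chromosome order and not to scale. Medians over all tested members were 0.28, 0.51, 0.32 and 0.19 for HOXA, HOXB, HOXC and HOXD, and -0.02, -0.01, -0.04 and -0.08 for the genes beside them; GTSF1, with 0 counts in PGK, and 1 HOX member are not drawn.

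The DNA-binding partners of HOX proteins were also mostly higher in CAG. Of 9 PBX, MEIS and PKNOX genes 7 were higher and 1 lower, with a median log2 fold change of 0.31. The shares were 77.8% and 11.1%, against 31.6% and 30.4% of all tested genes. MEIS3 averaged 9.75 ± 0.304 CPM in CAG and 5.58 ± 0.904 CPM in PGK (SD, n = 3 each), and rose by 0.81 (SE 0.11). PKNOX2 averaged 23.3 ± 1.49 CPM in CAG and 15.5 ± 0.424 CPM in PGK, and rose by 0.59 (SE 0.07). PBX4, at 2.78 ± 0.627 CPM in CAG and 3.89 ± 0.582 CPM in PGK, fell by 0.48 (SE 0.17), although its libraries overlapped. PBX3, MEIS1, MEIS2 and PKNOX1 rose by 0.25 to 0.35.

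Regulators of the clusters were called about as often as other genes. Of 12 tested genes of the Trithorax, CDX and CTCF list 5 were higher and 2 lower (58.3% called), with a median of 0.01, against 62.0% of all tested genes called. CDX2, a caudal-type homeobox activator of HOX genes, averaged 65.1 ± 3.43 CPM in CAG and 42.1 ± 1.86 CPM in PGK (SD, n = 3 each) and rose by 0.63 (SE 0.06). KMT2B, a histone methyltransferase that maintains HOX expression, rose by 0.52 (SE 0.05). DOT1L, a methyltransferase tied to HOXA expression in leukaemia, and RBBP5, a core subunit of the KMT2 complexes, fell by 0.30 (SE 0.05) and 0.18 (SE 0.06), and KMT2A did not pass at -0.06 (SE 0.07). Of 12 Polycomb genes 3 were higher and 5 lower (66.7% called, against the same 62.0%), with a median of -0.14. BMI1 and EZH2 rose by 0.81 (SE 0.05) and 0.64 (SE 0.05), while CBX8 and RNF2 fell by 0.52 (SE 0.07) and 0.40 (SE 0.06).

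Retinoic acid switches on HOX genes in the embryo, and 6 of 14 tested genes of its pathway were higher in CAG and 1 lower, with a median of 0.13. The share called, 50%, was below the 62.0% of all tested genes. CYP26B1, which degrades retinoic acid, averaged 12.3 ± 0.834 CPM in CAG and 5.49 ± 0.833 CPM in PGK (SD, n = 3 each) and rose by 1.17 (SE 0.11). The receptor gene RXRG rose by 1.07 (SE 0.33) at 1.17 ± 0.495 CPM in CAG and 0.558 ± 0.147 CPM in PGK, and the receptor gene RARA fell by 0.16 (SE 0.06). Among related homeobox genes outside the clusters' numbered members, 2 of 4 tested were higher (50% called, against the same 62.0%). GBX1 rose by 1.01 (SE 0.19) and MNX1 by 0.44 (SE 0.08). EVX1 and EVX2, which flank the HOXA13 and HOXD13 ends, were near 0 counts in both lines, at 0.0140 and 0.185 CPM in CAG and 0.0888 and 0.121 CPM in PGK.

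Markers of kidney and of other tissues were mixed in both lines. SIX2, a gene of nephron progenitors, averaged 30.4 ± 2.35 CPM in CAG and 47.1 ± 1.39 CPM in PGK (SD, n = 3 each), PAX2 was at 1.27 and 1.55 CPM in CAG and PGK, and PAX8 had at most 1 count in a library. The 8 renal and epithelial markers summed to 102 to 114 CPM in CAG libraries and 109 to 116 CPM in PGK libraries, with 3 of 7 tested higher and 2 lower. EPCAM, KRT8 and CDH1 averaged 1.11, 5.35 and 4.82 CPM in CAG and 0.0292, 1.09 and 1.17 CPM in PGK. They were the 3 that rose, while SIX2 and WT1 fell. KRT18, the most counted of the list, did not pass at 57.1 CPM in CAG and 52.2 CPM in PGK, with overlapping libraries. The 6 neuronal markers summed to 46.4 to 47.6 CPM in CAG and 28.4 to 30.8 CPM in PGK, with 2 of 3 tested higher (MAP2, and INA at 45.8 CPM in CAG and 10.5 CPM in PGK) and NEFM lower, at 0.0853 CPM in CAG and 18.8 CPM in PGK, while NEFH, TUBB3 and ELAVL3 were too low to be tested. The 8 fibroblast and matrix markers summed to 31.3 to 32.3 CPM in CAG and 20.9 to 22.8 CPM in PGK, with 4 of 4 tested higher. Most of the sum was COL1A1, at 22.1 CPM in CAG and 19.2 CPM in PGK, which rose by 0.20 (SE 0.07). COL3A1 rose by 2.02 (SE 0.15), at 6.82 CPM in CAG and 1.68 CPM in PGK. LUM and PDGFRA were low, at 1.03 and 1.43 CPM in CAG and 0.271 and 0.524 CPM in PGK. COL1A2 had 0 counts, and DCN and THY1 were near 0. The 6 immune markers summed to 2.29 to 3.19 CPM in CAG and 2.72 to 3.60 CPM in PGK, with CD3E at 0 counts. CD68, 1 of the 2 tested, was lower by 0.56 (SE 0.20), at 1.17 CPM in CAG and 1.73 CPM in PGK. Over all tested genes 62.0% were called, 31.6% as higher and 30.4% as lower. The part of any of these in the HOX differences was not tested.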

How the data were processed

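The authors deposited whole-number read counts per Ensembl gene for 6 libraries, not normalized and not pooled. The submitters' processing notes name build hg19 and the tools featureCounts 2.0.3, HISAT2 2.2.1, Bowtie2 2.5.1 and cutadapt 4.6; roles, annotation, strand and multiple-mapping settings were not given in these sources. Names were matched by Ensembl identifier to GENCODE 29 (19346 of 20169 rows), whose GRCh38 exons also gave lengths, overlaps, gene order and sequences. Genes were filtered with filterByExpr, scaled by TMM and compared with edgeR 4.0.16 in R 4.3.3 (robust quasi-likelihood test, two-sided, Benjamini-Hochberg adjustment over 13103 genes). Fold changes are CAG over PGK; standard errors were obtained by dividing the log2 fold change by the square root of F. CPM values use the scaled library size, and floors cover counting error only. The procedure was tested on simulated data. Alternatives were no filter, 1 CPM in 3 libraries, RLE factors, library size only, DESeq2 1.42.0, a replicate block, and leaving out each library. The members and lists were chosen with earlier results of these data known. Described in full are, per cluster, the 3 largest called changes, the highest level per length and falls; of other lists, up to 2 called genes per direction, and the nearest gene on each side. Values of 1 HOX gene and 1 cofactor gene, and some sequences, are not reported here.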

Additional observations from a re-analysis of the deposited data

How the results depend on the processing

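Under no low-count filter, the stricter filter, RLE factors, library size only, DESeq2 and the replicate block, and without each library, 32 of 36 tested HOX genes, all 3 falls among them, kept their side of the threshold, and every called HOX gene kept its direction. HOXA6, HOXA7, HOXA13, HOXC5, HOXD4 and HOXD13, none of them called, changed sign under at least 1 alternative. The exceptions for the threshold were HOXA2, HOXB4, HOXC4 and HOXD9. HOXA2 lost its call without CAG replicate 1. HOXC4 gained one under library size only, no low-count filter, the replicate block, and without CAG replicate 2, CAG replicate 3 or PGK replicate 1, and HOXB4 without PGK replicate 1. The cause was not tested. The median over HOX genes was 0.26 to 0.34 when a library was left out. That of HOXD was 0.15 to 0.26, and that of the genes beside HOXB -0.033 to 0.016. With library size only, the medians beside HOXA and HOXB were 0.0078 and 0.0186, the shift of all genes being 0.03.

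Same-numbered libraries did not all deviate together: the correlations across genes were 0.108, 0.103 and 0.0131 for replicates 1, 2 and 3, so the numbers were not taken to pair libraries, although every library correlated best with its own number. With the replicate block, 8861 genes were called instead of 8125, and 22 HOX genes were higher and 3 lower. The values of HOXB1, HOXC12 and HOXD12 are too low to be compared at this depth.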

Other observations

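The duplicated clusters are flanked by duplicated gene families, whose changes went several ways. The genes were picked after their values were seen. ATP5MC1 beside HOXB, ATP5MC2 beside HOXC and ATP5MC3 beside HOXD, which encode the same mature subunit of the ATP synthase ring, all fell, by 0.41 (SE 0.06), 0.11 (SE 0.04) and 0.24 (SE 0.05) on the log2 scale. ATP5MC1 averaged 109 ± 6.72 CPM in CAG and 145 ± 7.81 CPM in PGK (SD, n = 3 each). The heterochromatin protein genes split: CBX5 beside HOXC rose by 0.70 (SE 0.05), with 198 ± 5.51 CPM in CAG and 122 ± 4.25 CPM in PGK, while CBX3 beside HOXA and CBX1 beside HOXB did not pass at -0.04 and -0.02. Of the NFE2L genes, NFE2L3 beside HOXA fell by 0.40 (SE 0.06), and NFE2L1 beside HOXB and NFE2L2 beside HOXD did not pass at 0.11 and 0.04.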
